A study of Mus musculus with 2 samples.

Results

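The clustered histone genes of the mouse, whose symbols start with Hist1h, Hist2h, Hist3h or Hist4h, were followed in single-cell transcriptomes of fetal liver progenitors with and without IκBα. Membership rested on the symbols alone, although this class of genes was chosen with earlier results of these data known. Of the 32285 listed genes, 67 carried such a symbol. Of these, 54 lie on chromosome 13 (Hist1), 10 on chromosome 3 (Hist2), 2 on chromosome 11 (Hist3) and 1 on chromosome 6 (Hist4). Counts came from 1 WT library, which pooled 2 embryos, and 1 KO library, which pooled 3 embryos. Both came from E14.5 fetal livers of CD1 mice, an outbred stock, and were sorted for LSK cells (lineage-negative, SCA1-positive, cKIT-positive), a gate that holds stem cells together with early progenitors. The KO embryos carried the germline Nfkbia tm1Bal allele, so every cell of an embryo lacked the gene. They are called LSK cells here, after the cell type entry of the labels, although the titles speak of LT-HSCs.

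Clustered histone genes encode the linker histone H1 and the core histones H2A, H2B, H3 and H4, on which DNA is wound. They are transcribed mainly in S phase, when new chromatin is assembled. Their mRNAs are the known exception to polyadenylation: most end just after a short stem-loop that SLBP binds, instead of a poly(A) tail. A method that captures RNA by oligo(dT), as the droplet assay used here does, therefore sees only molecules that are polyadenylated or that offer an internal run of A. The values below are counts of such captured molecules and not of all histone mRNA.

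The cell filter left 3458 WT and 4417 KO cells, and the WT cells were deeper, at a median of 28065 UMIs (unique molecules counted) against 19560. The libraries had 7 barcodes in common. Nfkbia, the targeted gene, had 1478 UMIs in the WT library and 7 in the KO library, as the labels state. The LSK markers were only partly detected: Kit had a UMI in 57.9% of WT and 44.1% of KO cells, and Ly6a, which encodes SCA1, in 12.1% and 8.24%. With 1 library per genotype there was no replicate and no test. Values in parentheses after a level or ratio are 95% intervals for the counting of UMIs and take no account of variation among embryos. CPM is a gene's count per 1000000 UMIs of the cells compared. In pooled libraries a lower level in each cell and fewer cells with a high level cannot be told apart from the sum alone.

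The ends of the transcripts decide what this assay can see, so those of the members the results turn on are shown first. They were read from GENCODE vM21 transcripts (build GRCm38) in the sense direction, with the paired stem bases in capitals. Hist1h2ap and Hist1h2ad were the members with a KO level under 1/2 of the WT level, Hist1h2ab was higher in KO, Hist1h1e was close to equal, and Hist1h4h had the lowest ratio of the H4 genes.
Hist1h2ap: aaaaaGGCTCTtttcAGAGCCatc
Hist1h2ad: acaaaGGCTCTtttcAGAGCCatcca
Hist1h2ab: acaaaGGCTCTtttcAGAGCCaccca
Hist1h1e: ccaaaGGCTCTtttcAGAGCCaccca
Hist1h4h: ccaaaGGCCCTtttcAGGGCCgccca
The histone stem-loop motif was found in 45 of the 67 members (67.2%) against 63 of all 21901 protein-coding genes (0.288%). A match is a description of the letters, and no match, as in Hist1h1b, says only that they are not in the annotated transcript.

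Members with the same stem-loop letters differed widely between the libraries. The 16 bases from the first to the last capital shown for Hist1h2ap are the same in 25 members, and over the 24 of them with at least 50 UMIs the log2 KO/WT ran from -1.09 to 0.67, with 17 below 0. Just before its stem-loop Hist1h2ap has a run of 12 A, shown here in capitals beside the longest such run of any member, in Hist1h2ac.
Hist1h2ap, run of A: ccgaaaagAAAAAAAAAAAAggctcttt
Hist1h2ac, run of A: taggagAAAAAAAAAAAAAAAgttctat
A run of at least 12 A was found in 3 members, Hist1h2ap, Hist1h2ao and Hist1h2ac, which is 4.48% of members against 8.50% of protein-coding genes. Hist1h2ao carries the same 28 bases as Hist1h2ap but had only 157 UMIs in all, against 123272 of Hist1h2ap. Only 6.65% of the stretches of 60 bases in Hist1h2ao, and 7.09% of those in Hist1h2ap, are found in no other gene. How reads were assigned between these genes is therefore uncertain, and the contrast does not show what the run of A does. A polyadenylation signal (AATAAA or ATTAAA, sense strand) in the last 50 bases was found in 17 members (25.4%) against 72.2% of protein-coding genes.

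Many members cannot be told from their relatives over much of their length. A stretch of 60 bases shared with another annotated gene was found in 62 of 67 members, and 10 had no unique stretch of 60 bases in their last 300 bases, Hist1h2ap, Hist1h2br and Hist1h1e among them. Hist1h2ap (GRCm38, chr13:21833026-21833507, minus strand) and Hist1h2br (chr13:21833743-21837530, plus strand) lie head to head. Hist1h2ap shares 60-base stretches with 22 genes and Hist1h2br with 14. Hist1h1e (chr13:23620629-23622558) overlaps Hist1h2be on the same strand. Reads that match several places are not counted by the counting tool's defaults, so values of single members in such sets are uncertain.

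Of the 67 members, 61 had at least 50 UMIs over both libraries and are given single values. The other 6 included 3 without any UMI (Hist1h2bq, Hist1h2ba and Hist1h4m), and Hist1h1t came nearest to the minimum with 26 UMIs. The least counted member above it was Hist2h3c2, with 61 UMIs in WT and 38 in KO. Of the 3 without any UMI, Hist1h2bq has no stretch of 60 bases unique to it, and Hist1h4m has none in its last 300 bases. For both, absence cannot be told apart from reads that match several places. The 12 members with the most UMIs were Hist1h1b, Hist1h2ap, Hist1h1e, Hist1h2ae, Hist1h1a, Hist1h1c, Hist2h2ac, Hist1h4d, Hist1h1d, Hist1h2ab, Hist1h3e and Hist1h3c.

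Summed over all members, histone RNA was lower in the KO library. The WT library had 415006 UMIs, or 3831 CPM (3819 to 3843), and the KO library 318373 UMIs, or 3214 CPM (3202 to 3225). The log2 KO/WT was -0.25 (-0.26 to -0.25). A single H2A gene made up most of this gap: Hist1h2ap carried 64.8% of the difference in CPM, and without it, an alternative chosen after the data were seen, the sum stood at -0.11 (-0.11 to -0.10).

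Among the 61 measured members, 2 (3.28%) were at least 2-fold lower in KO, Hist1h2ap and Hist1h2ad, against 0.461% of the 13680 genes with at least 50 UMIs. None was at least 2-fold higher, against 0.877% of all genes. The members nearest to 2-fold without reaching it were Hist1h2br at -0.90 and Hist1h3h at 0.89. The median over the members was -0.14, against 0.01 over all genes tested, and 44 of 61 (72.1%) lay below 0 against 47.4% of all genes. The counting interval lay wholly below 0 for 31 members, against 15.5% of all genes, and wholly above for 7, against 18.5%. It held 0 for 23. These shares depend on how many UMIs a gene has, and the members were not matched to other genes on that.

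**Figure D1:**
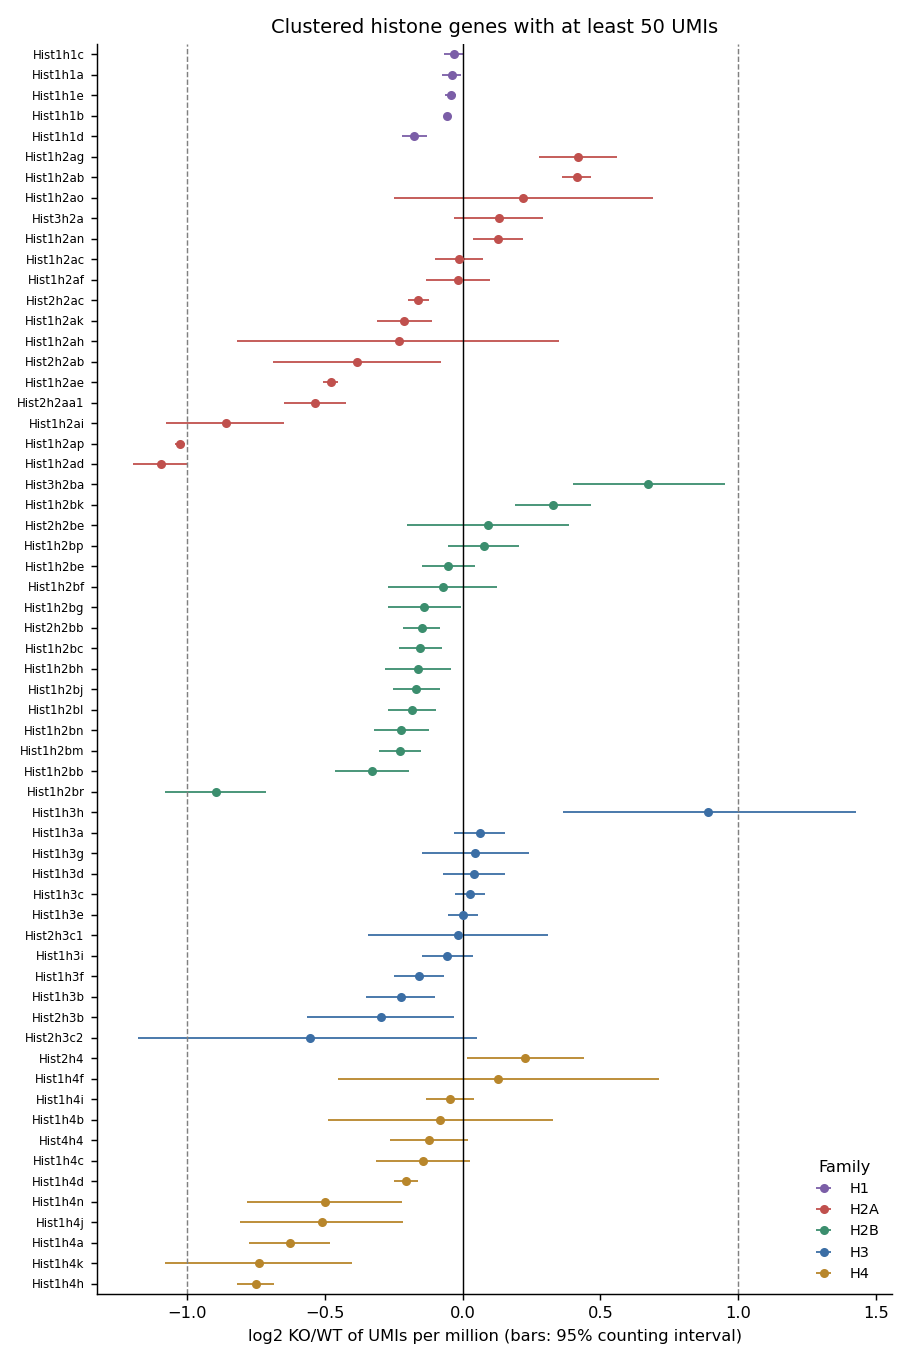
Log2 KO/WT of CPM (x axis) for each of the 61 clustered histone genes with at least 50 UMIs (rows, grouped by family and coloured), with points for the ratio, bars for the 95% counting interval and dashed lines at 2-fold. H1 genes lie between -0.17 and -0.03, whereas H2A genes spread from -1.09 to 0.42.

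H1 linker histones, which bind the DNA between nucleosomes, differed little. Hist1h1b, encoding H1.5, had 130026 UMIs in WT (1200 CPM) and 114305 in KO (1154 CPM), a log2 KO/WT of -0.06 (-0.07 to -0.05). Hist1h1e, encoding H1.4, stood at 367 and 357 CPM, and Hist1h1a, encoding H1.1, at 123 and 120 CPM. Hist1h1c, encoding H1.2, had 121 CPM in WT and 119 CPM in KO. Hist1h1d, encoding H1.3, was the lowest of the family at -0.17 (-0.22 to -0.13), with levels of 78.4 and 69.5 CPM. The family summed to -0.06 (-0.07 to -0.05), but its sign was not stable: with every cell thinned to 8500 UMIs the sum was 0.00067, and Hist1h1b, Hist1h1e and Hist1h1a came out at 0.00299, 0.0122 and 0.0648.

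H2A genes held both the lowest members and some of the highest. H2A pairs with H2B in the nucleosome, and its clustered genes encode nearly identical proteins. Hist1h2ap had 85083 UMIs in WT and 38189 in KO. This corresponded to 785 CPM against 385 CPM and a log2 KO/WT of -1.03 (-1.04 to -1.01). Hist1h2ad had 2728 UMIs in WT (25.2 CPM) and 1168 in KO (11.8 CPM), a log2 of -1.09. Hist1h2ae had 25209 UMIs in WT (233 CPM) and 16538 in KO (167 CPM), at -0.48 (-0.51 to -0.45). Hist1h2ai had 4.95 CPM against 2.73 CPM in KO, a log2 of -0.86 (-1.08 to -0.65).

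Some H2A genes were higher in KO. Hist1h2ab had 5201 UMIs in WT (48.0 CPM) and 6340 in KO (64.0 CPM), a log2 of 0.41 (0.36 to 0.47). Hist1h2ag had 750 UMIs in WT (6.92 CPM) and 917 in KO (9.26 CPM), at 0.42 (0.28 to 0.56). Hist2h2ac, the H2A gene with most UMIs in the Hist2 cluster, was lower again, with 119 CPM against 106 CPM in KO, at -0.16 (-0.20 to -0.12). Over the family, 11 of 16 measured genes lay below 0. The H2A sum was 1315 CPM against 833 CPM in KO, a log2 of -0.66 (-0.67 to -0.65), and -0.24 (-0.26 to -0.22) without Hist1h2ap. H2A made up 34.3% of histone UMIs in WT and 25.9% in KO, while H1 made up 49.4% and 56.6%.

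H2B genes together had 233 CPM in the WT and 210 CPM in the KO library, a log2 of -0.15 (-0.17 to -0.12), with 12 of 16 measured genes below 0. Hist1h2br, the head-to-head neighbour of Hist1h2ap, had 751 UMIs in WT (6.93 CPM) and 369 in KO (3.72 CPM), at -0.90 (-1.08 to -0.71). Hist3h2ba, of the small Hist3 cluster, had 185 UMIs in WT and 270 in KO, at 0.67 (0.40 to 0.95). Hist1h2bk had 808 UMIs in WT and 928 in KO, at 0.33 (0.19 to 0.47).

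H2A and H2B genes often lie back to back and share the stretch between their starts. There were 12 such pairs with starts within 500 bases of each other, all of 1 H2A and 1 H2B gene, with 175 to 305 bases between them. Both genes were measured in 10 pairs. In 4 of these the log2 KO/WT of the partners differed by at least 0.5, and in 3 the signs were opposite. Such counts were not made for members that share no stretch, so they say nothing particular about these pairs. Among the pairs with opposite signs, the interval held 0 for Hist1h2ah (-0.82 to 0.35, on 105 UMIs) and Hist2h2be (-0.20 to 0.39, on 389 UMIs). The pair of Hist1h2ah and Hist1h2bk is also among the 4. The widest gap was between Hist1h2ad at -1.09 and Hist1h2bf at -0.07, with 184 bases between them. Hist1h2ai at -0.86 faced Hist1h2bl at -0.18, and Hist1h2ag at 0.42 faced Hist1h2bj at -0.17. Hist1h2ap and Hist1h2br, in contrast, were both low.

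H3 genes were nearly equal in sum, with 196 CPM against 193 CPM in KO, a log2 of -0.02 (-0.05 to 0.01), with 6 of 12 genes below 0. Hist1h3e had 5932 UMIs in WT and 5429 in KO, or 54.8 CPM in each library. Hist1h3c had 51.3 CPM against 52.3 CPM in KO, at 0.03 (-0.03 to 0.08). Hist1h3h had the highest ratio of all members, 0.89 (0.36 to 1.43), on 49 UMIs in WT and 83 in KO.

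H4 genes were lower in sum, with 158 CPM in KO against 197 CPM in WT, a log2 of -0.32 (-0.35 to -0.29), with 10 of 12 measured genes below 0. All clustered H4 genes encode the same protein. Hist1h4d, with most UMIs of the family, had 10050 in WT (92.8 CPM) and 7968 in KO (80.4 CPM), at -0.21 (-0.25 to -0.16). Hist1h4h had 5225 UMIs in WT (48.2 CPM) and 2838 in KO (28.6 CPM), at -0.75 (-0.82 to -0.69). Hist1h4k was at -0.74 (-1.08 to -0.40) on 208 and 114 UMIs. Hist2h4 was at 0.23 (0.01 to 0.44) on 352 and 377 UMIs. In RefSeq promoters of GRCm38 (250 bases before to 50 after the start), CCAAT on either strand was in 3 of 12 matched H4 genes, in all 49 matched genes of the other families and in 37.9% of all 27025 promoters.

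The Hist1 genes form 2 blocks on chromosome 13. The first (21715763 to 22043676) held 23 members and summed to -0.34 (-0.35 to -0.33), or -0.07 (-0.08 to -0.06) without Hist1h2ap. The second (23531050 to 23934851) held 31 members and summed to -0.14 (-0.15 to -0.13). The Hist2 block on chromosome 3 was at -0.18 (-0.21 to -0.15) and the pair of Hist3 genes at 0.27 (0.14 to 0.41). Hist1h2ad stood beside genes near 0, such as Hist1h3d at 0.04. The outer neighbours of Hist1h2ap and Hist1h2br were Hist1h4n at -0.50 and Hist1h2ah at -0.23 (-0.82 to 0.35, on 105 UMIs). Hist1h2ah is not close by, since it starts at 22035164 and Hist1h2br ends at 21837530.

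**Figure D2:**
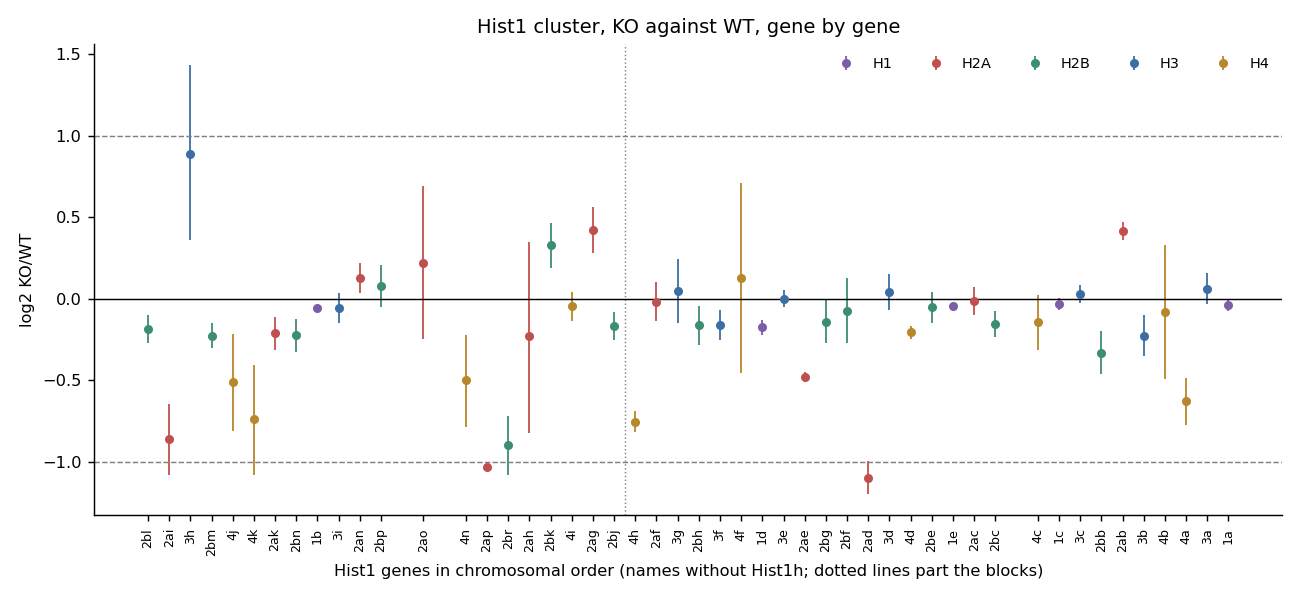
Log2 KO/WT (y axis, points, with 95% counting intervals) of the measured Hist1 genes in their order along chromosome 13 (x axis, order and not distance), coloured by family, with a dotted line between the 2 blocks and dashed lines at 2-fold. Hist1h2ad at -1.09, Hist1h2ap at -1.03 and Hist1h2br at -0.90 lie lowest; Hist1h2ap and Hist1h2br are neighbours, and Hist1h2ad stands between Hist1h2bf at -0.07 and Hist1h3d at 0.04.

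Cells were then split by Mki67, a gene expressed in cycling cells. A Mki67 UMI was found in 2938 WT cells (85.0%) and 3805 KO cells (86.1%). At 8500 UMIs per cell, with 129 WT and 379 KO cells too shallow to enter, the shares were 71.0% and 77.5%. Cells with a Mki67 UMI had more histone RNA in both libraries: 4030 against 1413 CPM in WT, a log2 of 1.51 (1.49 to 1.54), and 3373 against 1294 CPM in KO, a log2 of 1.38 (1.35 to 1.41). Cells without a Mki67 UMI were shallower, with a median of 14542 UMIs in WT and 10902 in KO.

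Gene by gene, 44 of 60 members in the WT library were at least 2-fold higher in cells with a Mki67 UMI, against 5.75% of all genes. In the KO library it was 34 of 59, against 5.0% of all genes. The medians over the members were 1.44 and 1.24. Hist1h1b was 5.15-fold higher with Mki67 in WT and 3.96-fold in KO, and Hist1h3c 5.57-fold and 4.12-fold. Hist1h2ap was only 2.04-fold and 1.85-fold higher.

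A few members did not follow the cell cycle gene. Hist1h2bc, an H2B gene known to give polyadenylated RNA in cells that do not divide, was the 1 member of each library at least 2-fold lower with Mki67, against 17.3% of all genes in WT and 16.4% in KO. It stood at 0.35 of its level without Mki67 in WT and 0.37 in KO. Hist3h2a, an H2A gene, stood at 0.64 and 0.73. The median log2 with against without Mki67 in WT was 1.13 over 15 measured members with a polyadenylation signal and 1.48 over 46 without it. Hist3h2a has such a signal at its annotated end. Hist1h2bc has none there and is counted among the 46, so this split does not follow which members give polyadenylated RNA.

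**Figure D3:**
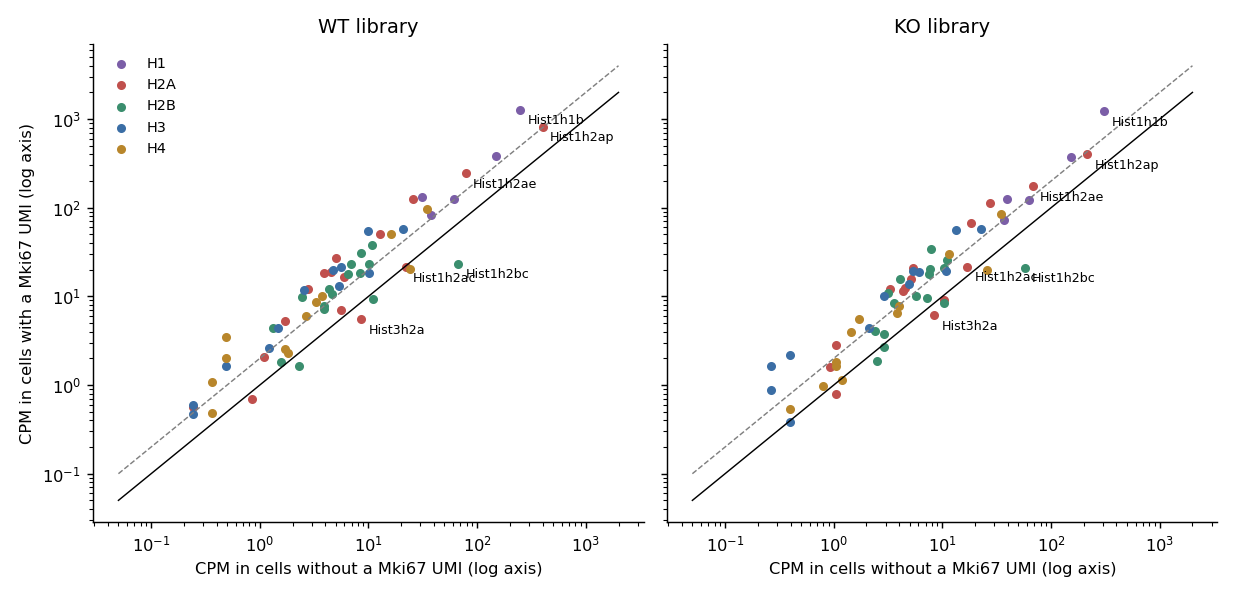
CPM of each measured member in cells without (x axis) and with (y axis) a Mki67 UMI, both on log axes, in the WT (left) and KO (right) library, coloured by family, with the solid line at equality and the dashed line at 2-fold. Most points lie above the dashed line, and Hist1h2bc lies well below equality in both libraries.

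The difference between libraries was seen on both sides of this split. Among cells with a Mki67 UMI the histone sum was at -0.26 (-0.26 to -0.25), and among cells without it at -0.13 (-0.17 to -0.09). Without Hist1h2ap the latter turned to 0.09 (0.05 to 0.13). Hist1h1b was higher in KO cells without Mki67, with 309 CPM against 248 CPM in WT. Hist1h2ap was lower on both sides, with 817 CPM in WT and 400 CPM in KO among cells with Mki67. Among cells without Mki67 it had 400 CPM against 216 CPM in KO. In the 56 WT and 64 KO cells without any UMI of Mki67, Top2a, Pcna or Mcm5, the histone sum was 988 CPM in WT and 930 CPM in KO, a log2 of -0.09 (-0.28 to 0.11). Members were thus counted in cells without cell cycle UMIs too, and free RNA as their source was not tested.

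Marker genes were used to gate 11 cell types. A gate is a range of a marker score and not a sharp class: 67.1% of cells were gated, and 17.9% of all cells lay within 0.1 of a limit. The erythroid gate was the largest, with 1071 WT and 1470 KO cells, and hepatocyte, macrophage and endothelial gates were also filled, although an LSK sort should hold few such cells. In WT the histone sum ran from 1499 CPM in the hepatocyte gate to 4862 CPM in the erythroid gate.

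The histone sum was lower in KO in 9 of 11 gates. It was at -0.28 (-0.29 to -0.27) in the erythroid gate, with 4862 CPM in WT and 4008 CPM in KO. The macrophage gate had the lowest ratio, -0.61 (-0.67 to -0.55), with Mki67 UMIs in 76.8% of WT and 65.3% of KO cells. The monocyte and dendritic gate was at -0.04 (-0.09 to -0.00). The neutrophil precursor gate was at 0.41 (0.32 to 0.51) and the endothelial gate at 0.47 (0.40 to 0.54), and both also had a larger share of cells with a Mki67 UMI in KO, 57.5% against 77.8% and 50.7% against 68.0%. The part of these shares in the histone values was not tested.

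The HSC gate, the cells nearest to the stem cells the study is about, held 398 WT and 388 KO cells. Its WT cells had a histone sum of 3972 CPM (3924 to 4022) and its KO cells one of 3330 CPM (3277 to 3383), a log2 of -0.25 (-0.28 to -0.23). With cells thinned to 8500 UMIs and the gates called again, the value was 0.0749. This changes depth, gate membership and the cells that enter together, since shallower cells are left out. The gate then held 372 WT and 292 KO cells, of which 53.0% and 71.2% had a Mki67 UMI. Its KO cells without a Mki67 UMI, at a median of 8141 UMIs before thinning, went from 165 to 84. Those with one went from 223 to 208. In WT the counts went from 165 to 175 without and from 233 to 197 with a Mki67 UMI. Within the HSC gate, cells with Mki67 were at -0.32 (-0.35 to -0.28) and cells without it at 0.18 (0.09 to 0.26).

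Hist1h2ap was lower in KO in 11 of 11 gates, from -1.29 in the macrophage gate to -0.41 in the endothelial gate, with the interval below 0 in all 11. It was already among the members with the lowest ratio over all cells, and the gates are parts of those same cells. Its signs across gates describe that ratio and are no separate support for it. In the HSC gate Hist1h2ap had 973 CPM in WT and 463 CPM in KO, a log2 of -1.07. Cells with Mki67 in that gate had 1264 CPM in WT and 586 CPM in KO, and cells without Mki67 had 350 CPM and 194 CPM. At 8500 UMIs per cell it was lower in 11 of 11 gates, from -1.39 to -0.28, but the interval held 0 in the neutrophil precursor gate (-0.61 to 0.05) and the endothelial gate (-0.56 to 0.0014). Hist1h1b, in contrast, was lower in 6 gates and higher in 5, from -0.40 to 1.19.

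Of the other members given single values here, many were named for their extreme ratio over all cells, and their signs across gates are a description of that. Hist1h2ae, Hist1h2ad and Hist1h4h were lower in KO in 9 of 11 gates, with the interval below 0 in 9, 8 and 8 of them. Hist1h2ai and Hist1h4k were also lower in 9 gates and Hist1h2br in 10, but their intervals lay below 0 in only 3, 2 and 3 gates. Hist1h2ag was higher in 11 of 11 gates, from 0.20 to 1.17, with the interval above 0 in 3. Hist1h2ab, Hist1h2bk and Hist3h2ba were higher in 10 gates, with the interval above 0 in 7, 3 and 1, and Hist1h2bk had 1 gate with the interval below 0. Hist1h1d, Hist1h4d and Hist2h2ac were lower in 8 gates. The signs were mixed for the rest: Hist1h1a was lower in 5 gates, Hist1h1e in 6, Hist1h1c in 7, Hist1h3c in 5, and Hist1h3e and Hist2h4 in 4. Hist1h3h had too few UMIs for such a count. Its mast and basophil, macrophage, endothelial and hepatocyte gates each held 0 UMIs in WT and 1 in KO. A count of 0 was replaced by 3 UMIs in the ratio, so the sign in such a gate carries no meaning. Hist1h4k in the neutrophil precursor gate and Hist3h2ba in the neutrophil progenitor gate also had 0 UMIs in WT.

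**Figure D4:**
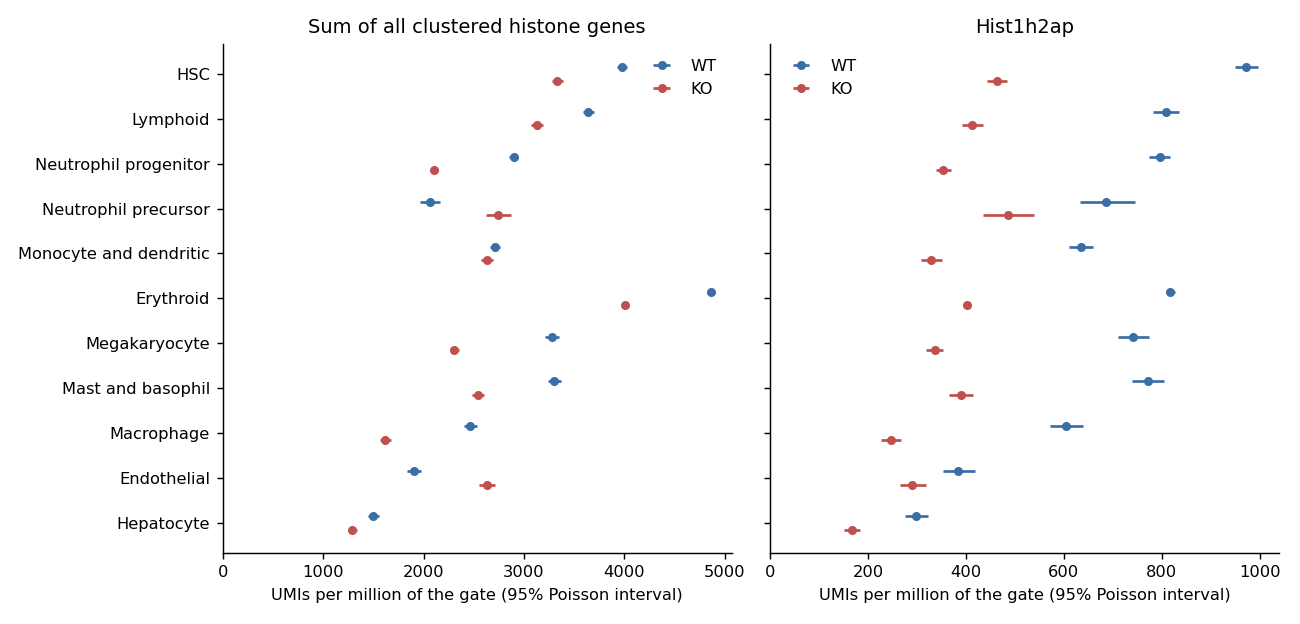
CPM (x axis, from 0) of the sum of all clustered histone genes (left) and of Hist1h2ap (right) in each of the 11 marker gates (rows), for the WT and KO libraries, with 95% Poisson intervals. The sum is lower in KO in 9 gates, and Hist1h2ap is lower in all 11.

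Cells were also ordered by the share of their UMIs in 24 S-phase genes and cut into 4 bins of equal cell number, both libraries together. Histone RNA was higher in each next bin, from 2682 to 6417 CPM in WT and from 2184 to 5243 CPM in KO. At like S-phase share the KO library was lower in every bin, with log2 KO/WT between -0.30 and -0.26. In bins by 20 G2/M genes the ratios lay between -0.29 and -0.24, and the histone level did not climb steadily. Hist1h2ap, already among the lowest members over all cells, was between -1.07 and -1.02 in all 8 bins. Its level differed less between bins than that of Hist1h1b: in WT it went from 638 to 1026 CPM over the S-phase bins, whereas Hist1h1b went from 557 to 2386 CPM. Each bin is set by UMI shares, which depend on depth.

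**Figure D5:**
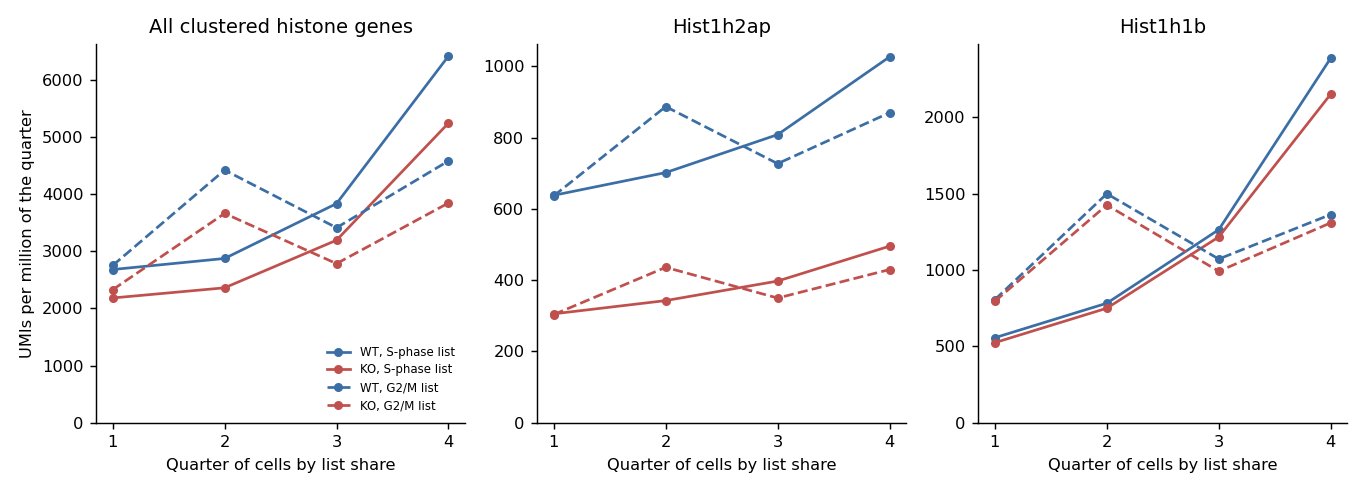
CPM (y axis, from 0) of all clustered histone genes, Hist1h2ap and Hist1h1b in 4 bins of cells (x axis) ordered by the share of UMIs in the S-phase list (solid) or the G2/M list (dashed), for WT and KO. The KO lines of Hist1h2ap lie below the WT lines in all 8 bins. The lines of Hist1h1b lie closer together, with KO also lower, at 2150 against 2386 CPM in WT in the top S-phase bin.

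Lists of genes that act around histone production were set beside the members. Over all 13680 genes with at least 50 UMIs, 0.461% were at least 2-fold lower in KO and 0.877% at least 2-fold higher. To find none past 2-fold in lists this small is close to those shares. None of the 24 S-phase genes was past 2-fold, with a median log2 KO/WT of 0.04, from Ung at -0.11 to Rrm2 at 0.14, and with Pcna at 267 CPM against 266 CPM in KO. The 20 G2/M genes had a median of 0.06, from Aurkb at -0.02 to Bub1 at 0.14. Of 14 measured histone mRNA processing genes none was past 2-fold, and their median was 0.00. Slbp, which encodes the stem-loop binding protein, had 212 CPM against 218 CPM in KO, a log2 of 0.04 (0.01 to 0.07). Cpsf2, of the complex that cuts histone mRNA ends, was at 0.08, and Casp8ap2, a factor of the histone locus body, at -0.01. The lowest was Coil at -0.12 and the highest Zfp473 at 0.39, on 81 and 97 UMIs.

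Most histone genes outside the clusters give ordinary polyadenylated mRNA. Over 11 measured genes the median was -0.01, with 6 below 0. None was past 2-fold, against 0.461% at least 2-fold lower and 0.877% at least 2-fold higher over all genes. H2afz, encoding the variant H2A.Z, had 2551 CPM in WT and 2598 CPM in KO. H3f3a and H3f3b, which encode H3.3, were at -0.02 and 0.00. H2afy, encoding macroH2A1, had 744 CPM against 638 CPM in KO, at -0.22 (-0.24 to -0.21), which is close to the clustered sum. H2afy2 was lowest at -0.23 (-0.43 to -0.02), on 448 and 350 UMIs, and H1fx highest at 0.26 (0.18 to 0.33). The 11 histone chaperones had a median of 0.03, with Npm1 at -0.02, Nap1l1 at -0.02 and Nasp at 0.06. Their lowest was Asf1b at -0.06 and their highest Hira at 0.09.

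The pools also differed in sex: 4 WT cells and 770 KO cells had Y-linked UMIs without Xist. Within the KO library, Hist1h2ap stood at 388 CPM in female and 371 CPM in male cells, against 792 CPM in WT female cells. Hist1h2ad stood at 12 and 12.4 CPM in KO female and male cells and at 25.6 CPM in WT female cells. Per cell, the median of Hist1h2ap in cells with Mki67 was 8.34 per 10000 UMIs in WT and 4.03 in KO. The middle 80% of these cells ran from 0.84 to 18.9 in WT and from 0.06 to 9.34 in KO, and the KO value was lower at each of the 5 percentiles computed. Since each genotype was 1 library, genotype, embryo pool and library cannot be told apart for any of these values.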

How the data were processed

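LSK cells of E14.5 fetal livers were profiled in 1 WT and 1 IκBα KO library. The authors aligned the reads to GRCm38 with Cell Ranger 6.0.0 under default settings and deposited raw counts of UMIs for each gene in each cell; the annotation release was not given in the sources used here. A cell needed at least 1000 genes and no more than 20% of UMIs from mitochondrial genes (382 of 3840 WT and 511 of 4928 KO barcodes were removed). Doublets called by Scrublet (scanpy 1.11.5), 3.90% of WT and 5.80% of KO cells, were kept. UMIs were summed over cells and given as CPM with exact Poisson intervals, and ratios with exact conditional (Clopper-Pearson) intervals. With 1 library per genotype no test was made, and a gene with at least 50 UMIs was counted as differing past 2-fold.

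A cell was gated to the marker list with the highest mean z-score of log values, if that score was at least 0.5 and led the next by 0.25. These limits were set after the data had been seen. The members and lists were chosen with earlier results of these data known. Single values were given for the 12 members with most UMIs, the 6 highest and 6 lowest ratios, other members that a comparison names, and in each list the 3 genes with most UMIs and both extremes. Kit, Ly6a, H2afy and a few further members were named after their values were seen. The histone mRNA processing list had 15 genes, of which 14 were listed in the files, and the list of unclustered histone genes had 15, of which 14 were listed and 11 measured. Transcript sequences came from GENCODE vM21, in which all 67 member IDs were found, and may differ from the annotation used for counting. Promoter sequences came from RefSeq, where 61 members matched. Calculations used Python 3.11.15, numpy 2.4.6 and scipy 1.17.1 and were tested on simulated data. Alternatives changed the cell filter, doublets, scaling, weighting of cells, sex, depth (8500 UMIs per cell), the UMI minimum and the members summed.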

Additional observations from a re-analysis of the deposited data

Results flagged for a closer look

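In 2 of the 11 marker gates the histone sum was higher in KO, against the direction of the other 9. The log2 KO/WT was 0.41 in the neutrophil precursor gate (40 WT and 45 KO cells) and 0.47 in the endothelial gate (73 WT and 100 KO cells). The difference from the other gates was not tested, since each genotype had 1 library. Among cells with a Mki67 UMI the values were 0.34 (0.24 to 0.44) and 0.29 (0.21 to 0.36). Among cells without it they were -0.18 (-0.49 to 0.13) on 17 WT and 10 KO cells, and -0.48 (-0.77 to -0.20) on 36 and 32. The interval of the former holds 0. Hist1h2ap was lower in KO in both gates, at -0.50 and -0.41.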

How the results depend on the processing

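No paired analysis was possible because there was a single library of either genotype. Hist1h2ap stayed between -1.03 and -0.99 and Hist1h2ad between -1.12 and -1.03 over the 6 settings tried for every member, and of 132 values of the 22 named members under these settings 126 kept their direction. For the sum over all cells (-0.25), the value was -0.25 without doublets, -0.23 as a mean over cells, -0.20 at 8500 UMIs per cell, -0.35 without Hist1h1b, -0.29 without 5 members listed as able to be polyadenylated and -0.11 without Hist1h2ap. The 5 were Hist1h1c, Hist1h1e, Hist1h2bc, Hist2h2be and Hist3h2a. This fixed list is not the set of 17 members with a polyadenylation signal, and Hist1h1e and Hist1h2bc have no such signal at their annotated ends. For cells with a Mki67 UMI (-0.26), it was -0.25 without doublets, -0.25 with haemoglobin, mitochondrial and ribosomal protein genes out of the total, -0.25 as a mean over cells, -0.28 at 8500 UMIs and -0.11 without Hist1h2ap. For cells without a Mki67 UMI (-0.13), it was -0.0804 as a mean over cells, -0.0603 in female cells, -0.0873 with the stricter definition and 0.0900 without Hist1h2ap. The log2 of cells with against without Mki67 was, in WT (1.51), 1.48 without a cell filter, 1.80 as a mean over cells and 1.36 at 8500 UMIs, and in KO (1.38), 1.42 without doublets, 1.63 as a mean over cells, 1.34 in female cells and 1.23 at 8500 UMIs. At 8500 UMIs, 3 of 5 families were lower in KO instead of 5, 1 member was past 2-fold instead of 2, H1 was at 0.00067, and Hist1h1b, Hist1h1e and Hist1h1a were at 0.00299, 0.0122 and 0.0648; Hist1h1a was also at 0.00303 as a mean over cells. Among the gates, HSC turned to 0.0749 at 8500 UMIs, hepatocyte to 0.12 without doublets, and monocyte and dendritic to 0.15 without Hist1h2ap. The causes were not tested. Leaving out Hist1h2ap, the gate score of at least 0.25, and the same settings for S-phase and G2/M bins and gene lists were chosen with the data in view; the count of lower gates stayed within 1.5 times 9, and the counts of 8 lower bins and of 0 list genes past 2-fold were unchanged by these 6 settings.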
